A study of Mus musculus with 20 samples.

Results

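The regions described here are 300 windows of 20 kb of the mouse genome that carried much H3K4me1 at limited H3K27ac in embryonic stem (ES) cells. They were chosen from 123131 tiles laid end to end over the 19 autosomes. A tile was kept where its H3K27ac in ES cells was at most 2 times its total histone H3, in RPM (distinct reads scaled to a library of 1e+06), and of the 111463 tiles kept the 300 with the largest ES H3K4me1 minus H3 were taken. The measured values of ES H3K4me1, H3K27ac and H3 therefore fixed the choice, and those 3 measures are given as description only.

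The study sequenced chromatin immunoprecipitated from mouse cells (ChIP-seq) in 20 libraries to compare enhancer marks between ES cells and other cell types, with total H3 or whole cell extract (WCE, input DNA that was not precipitated) as background. Neural progenitor cells (NPC) were derived from the 129JAE-C57/B6 ES cells through 4-day-old embryoid bodies and had 1 library each of H3K27ac and of Rfx1, a DNA-binding transcription factor. Mouse embryonic fibroblasts (MEF) had 1 library each of H3K4me1 and H3. Perfused whole liver, a tissue of mixed cell types, had 1 library each of H3K4me1, H3K27ac, H3K4me3, H3 and WCE, and the induced pluripotent stem (iPS) cells, a line named O6 made from MEFs, had 1 H3K4me1 library. The ES libraries comprised 3 of H3K4me1, 2 each of H3K27ac and of p300, and 1 each of H3K4me3, H3 and WCE. The ES cells were V6.5 (C57BL/6-129; 129JAE-C57/B6 in the titles), except that H3K4me1 library 2 came from such cells with the dox-inducible 4F2A transgene and H3K4me1 library 3 from j21, an inbred C57BL/6 line. Cells for iPS, p300, ES WCE and ES H3K4me1 library 1 had spent 2 passages off their MEF feeder layer, and those for the other ES libraries 1 passage. The spread between the 3 ES H3K4me1 libraries thus includes differences in line, transgene and passage. For the 2 H3K27ac and the 2 p300 libraries no label names separate cultures, so the spread between them may be technical. The labels used here give no age or strain for the liver and the MEFs.

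H3K4me1, written by the MLL3 and MLL4 methyltransferases, covers broad stretches around enhancers, while H3K4me3 marks promoters. The acetyltransferases p300 and CBP bind at enhancers and place H3K27ac, which is associated with active enhancers. Elements with H3K4me1 and without H3K27ac are commonly called poised or primed, and in pluripotent cells many of them lie near genes used later in development.

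Sequencing depth was 2.45 to 18.2 M deposited reads per library, where M stands for 1e+06 reads. Counting each position and strand once, repeats made up 70.0% of the reads in ES H3K4me3 and 72.5% in NPC Rfx1. The chosen tiles held a median of 21 distinct reads in the H3K4me3 library and of 5 in the Rfx1 library, against 115 in ES H3 and 423, 406 and 305 in the 3 ES H3K4me1 libraries. Counting alone then gives an error of 21.8% on a median tile in H3K4me3 and of 44.7% in Rfx1, against 5.35% in MEF H3K4me1. Values are given below as a fold, the RPM of a mark over the RPM of its background. The background was H3 of the same cells for histone marks and ES WCE for p300 and Rfx1. ES H3 stood in for H3 of NPC and iPS cells, so those folds mix 2 cell types. All 300 chosen tiles were among the 116579 tiles with at least 10 distinct H3 reads, called all tiles below. The median of all tiles was below 1-fold in each library described, between 0.154 for liver H3K4me3 and 0.798 for p300 library 2. Set against that median tile, the median chosen tile stood at 14.3 times in iPS H3K4me1, 7.46 in liver H3K4me1, 5.82 in MEF H3K4me1, 4.72 in liver H3K27ac, 1.99 in liver H3K4me3, 1.97 in p300, 1.93 in NPC H3K27ac, 1.26 in ES H3K4me3 and 1.20 in NPC Rfx1.

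One chosen tile stood apart from the others. The tile chr11:3040001-3060000 held 2582 H3 reads, or 269 RPM, and between 28.3 and 174 times the reads of the median tile in every one of the 20 libraries, WCE included. Its ES H3K4me1 was only 1.23-fold over H3, although the difference of 61.1 RPM ranked first. It was kept as a member, and without it each count of chosen tiles at 2-fold or more given below was the same; ranges in RPM below leave it out. Excluding it, ES H3K4me1 minus H3 ran from 27.1 to 58.3 RPM over the chosen tiles. The last tiles inside had differences of 27.18, 27.16 and 27.07 RPM, and the first outside had 27.03, 27.01 and 26.98 RPM, so the lower edge is a fine cut through a continuous range. At the H3K27ac limit the nearest members lay at 1.996, 1.996 and 1.994 times H3, and the nearest tiles over the limit with as much H3K4me1 lay at 2.002, 2.003 and 2.004.

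The tiles were not free of H3K27ac. Their median ES H3K27ac was 1.66-fold over H3, against 0.301 over all tiles, which placed the median member at the 88.3th percentile. H3K27ac exceeded H3 in 287 members and 1.5 times H3 in 198, and 13 members had H3K27ac at or under H3. Taken singly, H3K27ac library 1 put 60 members over the limit and library 2 put 18, and none was over it in both. Within tiles, bins of 500 bp enriched at least 3-fold (Poisson test, adjusted p of 0.01) were called in both H3K27ac libraries in 240 members, against 20.4% of all tiles. Such a bin was missing from both libraries in 10 members. Enriched H3K27ac covered a median of 2 of the 40 bins of a member. The limit on the tile mean thus retained small acetylated sites inside a tile, and the members are called below the chosen tiles or tiles of limited H3K27ac.

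They were also not domains in the sense of 1 continuous block. ES H3K4me1 was enriched in at least 2 of its 3 libraries over a median of 16 of 40 bins in the chosen tiles. Of all tiles, 31.3% held any such bin. The median was 18 bins in 3485 tiles over the H3K27ac limit, called the acetylated tiles. Their H3K4me1 minus H3 lay within the range of the chosen tiles, the outlying tile included. Its median was higher, at 36.9 RPM against 31.6 RPM in the chosen tiles, so the 2 sets were not matched in H3K4me1. The longest run of such H3K4me1 bins, with gaps of up to 2 bins joined, had a median of 5.5 kb in the chosen tiles. In the acetylated tiles it was 7 kb. It reached 10 kb in 30 of the 300 chosen tiles and in 758 of the 3485 acetylated tiles. A tile over the limit lay directly beside 192 of the chosen tiles (64.0%), against 82.9% of the acetylated tiles and 10.1% of all tiles within the limit. Such tiles flanked 59 of the chosen tiles on both sides. The chosen tiles fell into 265 separate stretches, of which 27 held more than 1 tile. The median ES H3K4me1 fold of 3.71 in the chosen tiles stood at 2.90 and 2.72 in the tiles to their left and right, and at 1.56 and 1.38 at 100 kb. H3K27ac was level over the same 3 central positions, at 1.72, 1.66 and 1.63, whereas around acetylated tiles it peaked at 4.85 over neighbours at 2.69 and 2.76.

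**Figure D1:**
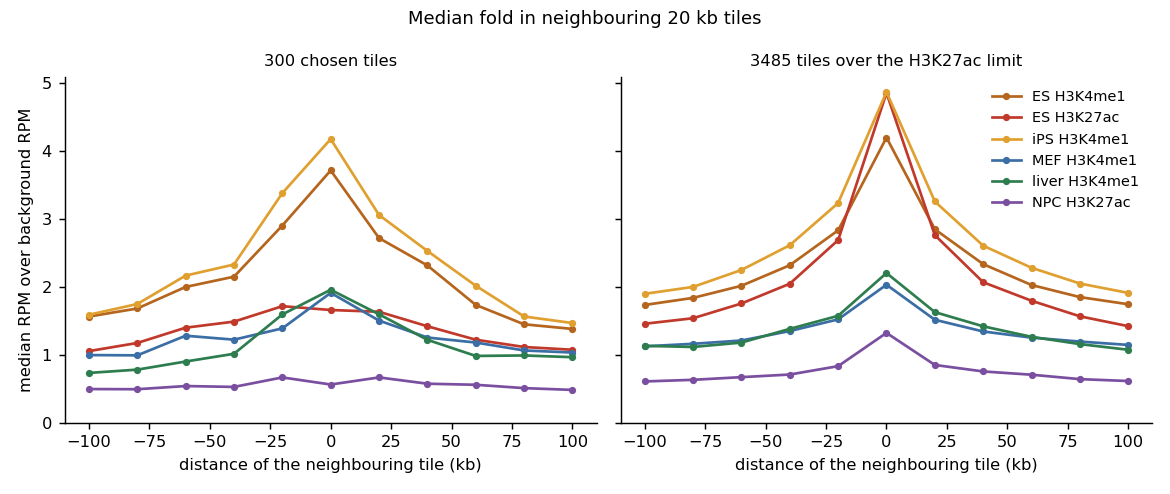
Median RPM over background RPM (y axis) in tiles at a given distance in kb (x axis) from the chosen tiles (left panel) and from the acetylated tiles (right panel), with 1 line per mark and cell type. ES H3K27ac is flat at 1.72, 1.66 and 1.63 across the chosen tiles and their neighbours and peaks at 4.85 in the acetylated tiles, a difference that the choice of tiles fixes.

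The high H3K4me1 recurred in H3K4me1 libraries left out of the choice. Each fold was still taken over the ES H3 library, which the choice used, so these counts are not fully independent of it. When the 300 tiles were chosen again without ES H3K4me1 library 1, 2 or 3, the library left out was at least 2-fold over H3 in 279, 298 and 296 of the 300 tiles, against 10.4%, 10.2% and 12.3% of all tiles. Its median fold was 2.98, 3.44 and 3.66. The limit on H3K27ac carried over less fully: without H3K27ac library 1, the tiles chosen by library 2 had a median of 1.86-fold in library 1, and 116 of 300 were over 2-fold there, against 9.54% of all tiles. Without library 2 the median in it was 1.52-fold and 51 of 300 were over 2-fold, against 9.94% of all tiles.

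The largest differences after the outlying tile gave a picture of single members. The tile chr4:129980001-130000000 had 82.6, 67.7 and 61.6 RPM in the 3 ES H3K4me1 libraries, 26.6 and 19.0 RPM in the 2 H3K27ac libraries and 12.3 RPM of H3. In liver it had 87.7 RPM of H3K4me1 and 86.5 RPM of H3K27ac, against 10.1 RPM of H3. Its p300 of 14.7 and 14.2 RPM was level with 14.9 RPM of WCE. The tile chr2:29480001-29500000 had 70.0, 69.7 and 66.0 RPM of ES H3K4me1 against 14.3 RPM of H3, and was 5.00-fold over H3 in MEF H3K4me1, 8.39-fold in liver H3K4me1 and 5.00-fold in liver H3K27ac. By contrast, chr13:44760001-44780000, with 66.8, 67.4 and 57.1 RPM of ES H3K4me1 against 9.80 RPM of H3, was 1.27-fold over H3 in MEF H3K4me1 and 1.76-fold in liver H3K4me1. The tile chr16:8620001-8640000, at 70.5, 67.4 and 67.6 RPM of ES H3K4me1 against 14.7 RPM of H3, was 1.55-fold in MEF and 1.13-fold in liver. Equal H3K4me1 in ES cells thus went with unlike values in the other cells.

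**Figure D2:**
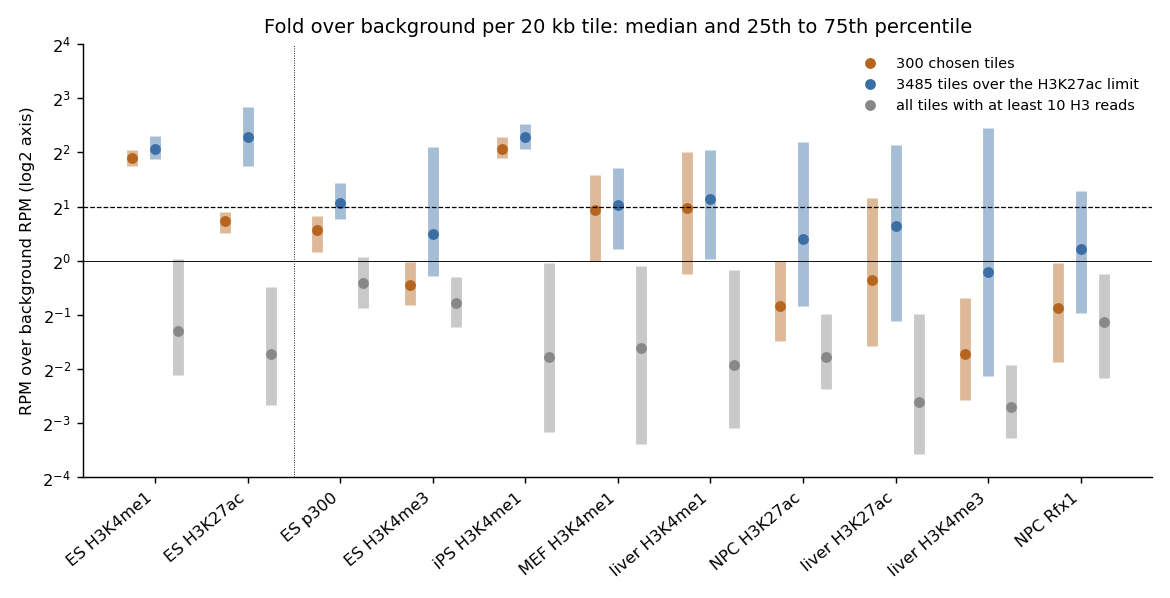
RPM over background RPM on a log2 axis (y axis) for each mark and cell type (x axis), as the median (point) and the 25th to 75th percentile of tiles (bar) for the 300 chosen tiles, the 3485 acetylated tiles and all tiles with at least 10 H3 reads. Left of the dotted line are the 2 marks that chose the tiles; right of it the chosen tiles lie near the acetylated tiles in MEF H3K4me1 (1.91 and 2.03) and below them in NPC H3K27ac (0.563 and 1.32).

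H3K4me3, the promoter mark, was lower in the chosen tiles than in the acetylated tiles. Against all tiles, its median fold was somewhat higher and its share at 2-fold lower. In the chosen tiles it ranged from 2.11 to 47.3 RPM with a median of 8.87 RPM. This median tile was 0.733-fold over H3, against 1.41-fold in acetylated tiles and 0.584-fold over all tiles. At least 2-fold H3K4me3 was present in 14 of the 300 chosen tiles (4.67%), against 42.2% of acetylated tiles and 7.83% of all tiles. An enriched bin of H3K4me3 was present in 39 chosen tiles (13.0%), against 54.9% of acetylated tiles and 11.2% of all tiles, and covered at most 4 of 40 bins of a chosen tile. When the tiles were chosen without H3K27ac library 1 the count at 2-fold was 7 (2.33%), and without library 2 it was 23 (7.67%). H3K4me3 had a single shallow library, so these shares have no replicate check.

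The tile with the highest H3K4me3 fold, chr4:147640001-147660000, had 47.3 RPM against 10.5 RPM of H3, 4.49-fold, and was also the last tile to enter the 300. It was followed by chr5:38100001-38120000 at 27.02 RPM against 7.40 RPM of H3, 3.65-fold, and by chr2:105460001-105480000 at 24.1 RPM against 7.503 RPM of H3, 3.21-fold. All 3 were also at least 2-fold over H3 in liver H3K4me3, at 2.29-, 2.31- and 2.01-fold. Of the 14 chosen tiles with H3K4me3, 9 (64.3%) had liver H3K4me3 and 9 had NPC Rfx1 at 2-fold or more, against 10 (3.50%) and 16 (5.59%) of the other 286. Over all tiles the shares were 87.3% and 55.6% of tiles with H3K4me3, against 2.60% and 2.71% of tiles without it. H3K4me3 and Rfx1 were the 2 libraries with the most repeated reads. With every deposited read counted, 10 of 300 tiles reached 2-fold in H3K4me3 and 23 in Rfx1, against 7.42% and 6.50% of all tiles.

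p300 lay over the chosen tiles at a modest level. Library 1 ranged from 5.38 to 63.6 RPM with a median of 21.0, library 2 from 8.11 to 54.2 RPM with a median of 20.05, and WCE from 8.60 to 38.3 RPM with a median of 14.1. The 2 p300 libraries were 1.53- and 1.40-fold over WCE at the median tile, and ranked the tiles alike, with a Spearman correlation of 0.884 over 299 tiles, which share the WCE library and sequence. The fold of the 2-library mean had a median of 1.48 in the chosen tiles, 2.08 in acetylated tiles and 0.748 over all tiles. It reached 2-fold in 50 chosen tiles (16.7%), against 55.0% of acetylated tiles and 3.48% of all tiles. By library, 55 chosen tiles reached 2-fold in library 1, against 4.17% of all tiles, and 41 in library 2, against 3.13% of all tiles.

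Neither p300 nor WCE took part in the choice, and p300 was compared with WCE by limma across all 123122 tiles with enough reads, over the 10 ES libraries. The spread in this fit came from the p300, H3K4me1 and H3K27ac libraries together. H3K4me1 and H3K27ac took part in the choice, so the p-values are not independent of it and do not measure the spread of p300 alone. The median log2 difference, p300 minus WCE, was 0.55 in the chosen tiles, 1.04 in acetylated tiles and -0.38 over all tiles, so the chosen tiles stood 0.93 above the median tile. The difference was above 0 in 248 of the 300 chosen tiles. At a Benjamini-Hochberg adjusted p of 0.05, 9 chosen tiles were higher in p300 (3.00%), against 21.9% of acetylated tiles and 1.2% of all tiles. This count rested on a single WCE library and on the spread of all ES libraries: it was 0 in a limma fit of the p300 and WCE libraries alone and 24 with limma-voom, and leaving out 1 library gave 0 to 21. The share of all tiles called was 0.113% in the small fit and 2.38% with limma-voom, and 0.0544% to 1.36% when 1 library was left out. The 0 in the small limma fit stood beside 157 chosen tiles at an unadjusted p of 0.05 (52.3%), against 9.77% of all tiles, and the limma fit of all ES libraries had 118 (39.3%), against 7.79% of all tiles.

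The tile chr7:130040001-130060000 had the highest p300 fold over WCE, by the lower of its 2 libraries, with 53.0 and 49.5 RPM against 13.7 RPM of WCE. Its log2 difference was 1.89 (SE 0.209), with an adjusted p of 0.0247 from limma. It was followed by chr6:140560001-140580000, with 52.3 and 47.0 RPM against 14.1 RPM of WCE and a log2 difference of 1.80 (SE 0.279), with an adjusted p of 0.0429 from limma. The next, chr5:38980001-39000000, had 33.0 and 39.0 RPM against 11.4 RPM of WCE and a log2 difference of 1.63 (SE 0.204), with an adjusted p of 0.0291 from limma. The first of the 3 was marked in every other cell type, with 2.66-fold H3K27ac in NPC, 2.83-fold H3K4me1 in MEF, and 4.59-fold H3K4me1 and 4.86-fold H3K27ac in liver. The third was low elsewhere, with 0.190-fold H3K27ac in NPC, 0.410-fold H3K4me1 in MEF and 0.269-fold H3K4me1 in liver, while its iPS H3K4me1 was 4.38-fold over ES H3.

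At the scale of 500 bp, p300 was enriched in both libraries at 202 of the 300 chosen tiles (67.3%), against 93.8% of acetylated tiles and 18.3% of all tiles. An enriched H3K27ac bin of both libraries lay in the same tile in 178 of these 202 (59.3% of the 300), and 24 tiles (8.0%) had a p300 bin without one. A further 62 (20.7%) had an H3K27ac bin without a p300 bin and 36 (12.0%) had neither. Over all tiles the same 4 states made up 13.7%, 4.58%, 6.65% and 75.04%. Around the strongest p300 bin of a tile, mean H3K27ac in the chosen tiles was 1.39 and 1.32 RPM per bin in the 2 libraries, against 4.81 and 5.39 RPM in 3270 acetylated tiles. At 5 kb to the left it stood at 0.434 and 0.408 RPM in the chosen tiles, so a small H3K27ac summit lay on the p300 site there too. Mean H3K4me1 at the same bin was 1.91, 2.20 and 2.15 RPM in the chosen tiles, against 1.51, 1.99 and 1.60 RPM in the acetylated tiles. Total H3 was lower at the p300 bin, with 0.252 RPM in the chosen tiles and 0.213 RPM in the acetylated tiles, than 5 kb to its left, with 0.299 and 0.298 RPM.

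**Figure D3:**
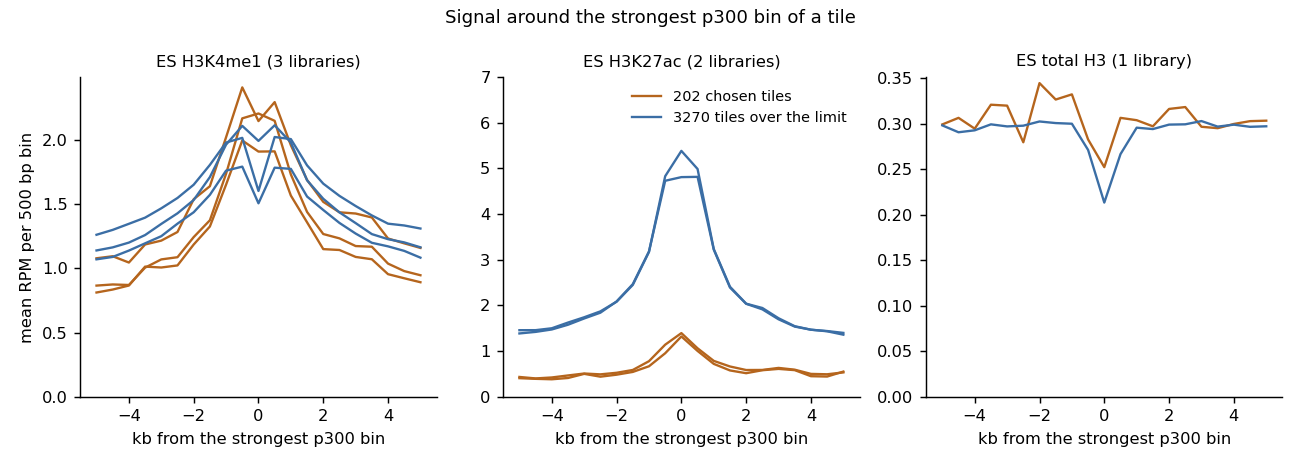
Mean RPM per 500 bp bin (y axis) by distance in kb from the strongest p300 bin of a tile (x axis), for 202 chosen tiles and 3270 acetylated tiles, with 1 line per library. In the chosen tiles H3K27ac reaches 1.39 and 1.32 RPM at the p300 bin, against 4.81 and 5.39 RPM in the acetylated tiles, and H3 dips to 0.252 and 0.213 RPM.

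p300 was unequal within the chosen tiles. The 192 tiles beside a tile over the H3K27ac limit had a median of 1.38-fold and 21 at 2-fold or more, against 1.64-fold and 29 in the 108 tiles away from one. The 13 tiles with H3K27ac at or under H3 had a median of 0.985-fold. Across 299 chosen tiles p300 was lower where liver H3K4me1 was higher, with a Spearman correlation of -0.32, whereas over all tiles the correlation was 0.548. The pairs share no library, but they share the sequence of the tile. In numbers, p300 was 1.32- and 1.25-fold in the 2 libraries at the median of 148 chosen tiles with liver H3K4me1 of 2-fold or more, and 1.73- and 1.58-fold at the median of 87 with liver H3K4me1 under 1-fold. p300 of 2-fold was present in 14 (9.46%) of the first set and 23 (26.4%) of the second, and in 52.1% and 60.8% of the acetylated tiles divided the same way. ES H3K4me1 was 3.81- and 3.62-fold in the 2 sets of chosen tiles, a measure whose range the choice of tiles restricts. WCE was 13.8 and 14.1 RPM.

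In NPC, where H3K27ac was the histone mark sequenced, the chosen tiles were seldom acetylated. NPC H3K27ac ranged from 1.01 to 368 RPM with a median of 6.92 RPM, or 0.563-fold over ES H3, against 1.32-fold in acetylated tiles and 0.292-fold over all tiles. It reached 2-fold in 27 of 300 (9.0%), against 41.6% of acetylated tiles and 8.76% of all tiles, so the share of chosen tiles was at the level of the genome at large. An enriched bin was present in 109 (36.3%), against 66.3% of acetylated tiles and 18.6% of all tiles. NPC Rfx1 reached 2-fold in 25 of 300 (8.33%), against 31.6% of acetylated tiles and 6.86% of all tiles, and an enriched bin was present in 48, against 9.9% of all tiles. When the tiles were chosen without H3K27ac library 1 the Rfx1 count was 14 (4.67%), below the share of all tiles, and without H3K27ac library 2 it was 47 (15.7%). Without ES H3K4me1 library 1 it was 43 (14.3%). With a median of 5 reads per tile, Rfx1 could not be resolved in a typical member.

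A few tiles carried strong NPC H3K27ac. The tile chr3:88300001-88320000 had 368 RPM of NPC H3K27ac, against 14.5 and 17.3 RPM in ES cells and 0.783 RPM in liver. It was 32.1-fold over ES H3, with 39 of its 40 bins enriched, and NPC Rfx1 was 10.6-fold over ES WCE. The tile chr2:105460001-105480000, named above for H3K4me3, had 150 RPM in NPC, against 11.4 and 17.0 RPM in ES cells and 0.978 RPM in liver. The third, chr15:103120001-103140000, had 128 RPM in NPC and 80.4 RPM in liver, against 18.5 and 21.1 RPM in ES cells. The first and second were thus acetylated in NPC and not in liver, and the third in both, with no NPC replicate to give an error.

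In MEFs, nearly as many chosen tiles carried H3K4me1 at 2-fold or more as did not. MEF H3K4me1 ranged from 1.04 to 137 RPM with a median of 24.1 RPM, against 12.5 RPM of MEF H3. The median fold of 1.91 compared with 2.03 in acetylated tiles and 0.329 over all tiles. At least 2-fold was reached by 140 of 300 (46.7%), against 50.9% of acetylated tiles and 8.69% of all tiles. Under 1-fold were 75 of 300, against 19.8% of acetylated tiles and 76.7% of all tiles. An enriched bin was present in 273, against 43.1% of all tiles. In 216 of 299 tiles MEF H3K4me1 in RPM lay below all 3 ES libraries. The choice of tiles favours this contrast, and its share over all tiles was not counted. The highest were chr15:25580001-25600000 at 128 RPM against 14.6 RPM of H3, 8.79-fold, chr8:46460001-46480000 at 83.4 RPM against 9.52 RPM, 8.76-fold, and chr15:72980001-73000000 at 137 RPM against 17.1 RPM, 8.003-fold. The second of these had ES H3K27ac of only 6.76 and 5.17 RPM against 10.0 RPM of H3, and reached 2.29-fold H3K27ac in NPC and 3.34-fold in liver.

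Liver gave a similar count for H3K4me1. Its values ranged from 0.945 to 167 RPM with a median of 23.1 RPM, against 11.4 RPM of liver H3. The median fold was 1.96 in the chosen tiles, 2.20 in acetylated tiles and 0.262 over all tiles. At least 2-fold was reached by 148 of 300 (49.3%), against 53.3% of acetylated tiles and 11.9% of all tiles. Under 1-fold were 87 (29.0%), against 24.4% of acetylated tiles and 77.0% of all tiles. An enriched bin was present in 239, against 33.2% of all tiles. In whole tissue, a mark present in fewer cells and a lower level per cell cannot be told apart. The highest were chr6:94640001-94660000 at 153 RPM against 9.83 RPM of H3, 15.6-fold, chr6:95660001-95680000 at 132 RPM against 10.7 RPM, 12.3-fold, and chr5:141060001-141080000 at 167 RPM against 13.9 RPM, 12.0-fold. In MEF the same 3 were 6.09-, 1.45- and 4.06-fold, so the second was high in liver with little in fibroblasts.

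Liver H3K27ac reached 2-fold in 87 of 300 chosen tiles (29.0%), against 44.1% of acetylated tiles and 10.5% of all tiles. It ranged from 0.587 to 243 RPM, and its median of 0.779-fold compared with 1.57 in acetylated tiles and 0.165 over all tiles. An enriched bin was present in 142 (47.3%), against 66.1% of acetylated tiles and 20.1% of all tiles. The highest was again chr5:141060001-141080000, with 243 RPM in liver, against 31.8 and 22.0 RPM in ES cells, 17.4-fold over liver H3. The next were chr6:115620001-115640000 at 113 RPM, 13.1-fold, and chr12:77180001-77200000 at 143 RPM, 13.0-fold. These 3 tiles had ES p300 of 1.13- to 1.37-fold, 0.764- to 0.821-fold and 1.08- to 1.23-fold over WCE in the 2 libraries. To set H3K4me1 and H3K27ac of liver side by side without a shared background, H3K4me1 was also taken over liver WCE, where 145 of 300 tiles reached 2-fold, against 11.1% of all tiles. Of these 145, 86 (59.3%) also had 2-fold H3K27ac over liver H3, against 81.4% of such acetylated tiles and 71.6% of such tiles of the genome. Of the other 155 chosen tiles 1 had H3K27ac (0.645%), against 10.7% of such acetylated tiles and 2.88% of such tiles of the genome.

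H3K4me3 in liver differed between the 2 scales. It reached 2-fold in 19 chosen tiles (6.33%), against 39.2% of acetylated tiles and 9.23% of all tiles, with a median of 0.305-fold. An enriched bin was present in 113 (37.7%), against 61.5% of acetylated tiles and 16.8% of all tiles. The share at 2-fold was thus below that of all tiles and the share with a bin above it. With each library scaled to a median tile ratio of 1, which chose other tiles, the 2-fold count was 84 of 300 (28.0%), against 21.5% of all tiles.

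MEF and liver did not share all of their marked tiles. H3K4me1 was 2-fold or more in both at 93 of 300 chosen tiles (31.0%), in MEF and not liver at 47 (15.7%), in liver and not MEF at 55 (18.3%) and in neither at 105 (35.0%). Among acetylated tiles the same 4 shares were 35.5%, 15.5%, 17.8% and 31.2%, and over all tiles 3.98%, 4.71%, 7.89% and 83.4%. The Spearman correlation of the 2 folds was 0.448 over 299 chosen tiles and 0.662 over all tiles, where the libraries differ but the tile sequence is shared. The liver fold was at least 2 times the MEF fold in 71 of the 299 (23.7%), against 22.8% of acetylated tiles and 29.8% of all tiles. The MEF fold was at least 2 times the liver fold in 70 (23.4%), against 20.5% of acetylated tiles and 25.8% of all tiles. For H3K27ac, NPC and liver both reached 2-fold at 11 chosen tiles (3.67%), NPC alone at 16 (5.33%), liver alone at 76 (25.3%) and neither at 197 (65.7%). The same 4 states made up 29.6%, 12.0%, 14.5% and 43.8% of acetylated tiles, and 5.01%, 3.76%, 5.48% and 85.8% of all tiles. All 4 of MEF H3K4me1, liver H3K4me1, liver H3K27ac and NPC H3K27ac were present in 9 tiles (3.00%), against 19.6% of acetylated tiles and 1.58% of all tiles, and none of the 4 in 98 (32.7%), against 25.6% of acetylated tiles and 79.2% of all tiles.

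**Figure D4:**
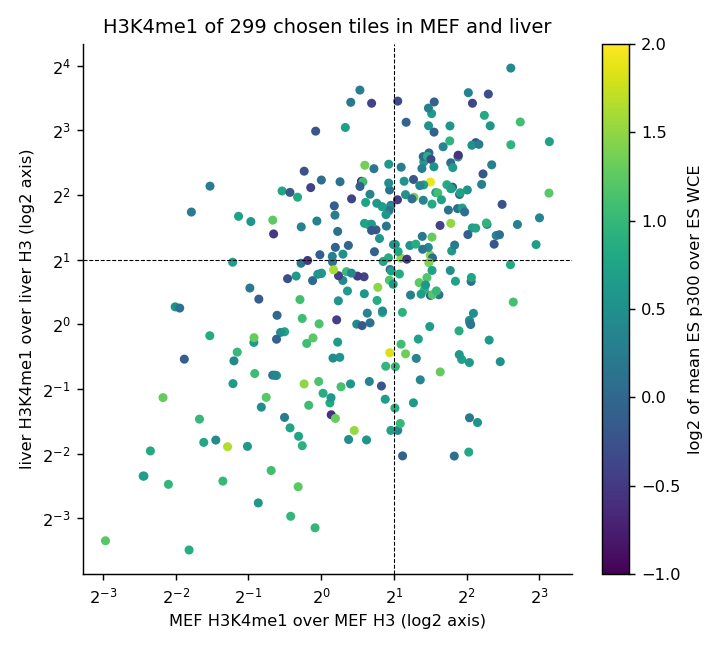
MEF H3K4me1 over MEF H3 (x axis) and liver H3K4me1 over liver H3 (y axis) on log2 axes for 299 chosen tiles, leaving out the tile with outlying H3, coloured by mean ES p300 over WCE on a log2 scale. Dashed lines stand at 2-fold; 93 tiles lie above both, 47 only right of the vertical line, 55 only above the horizontal line.

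**Figure D5:**
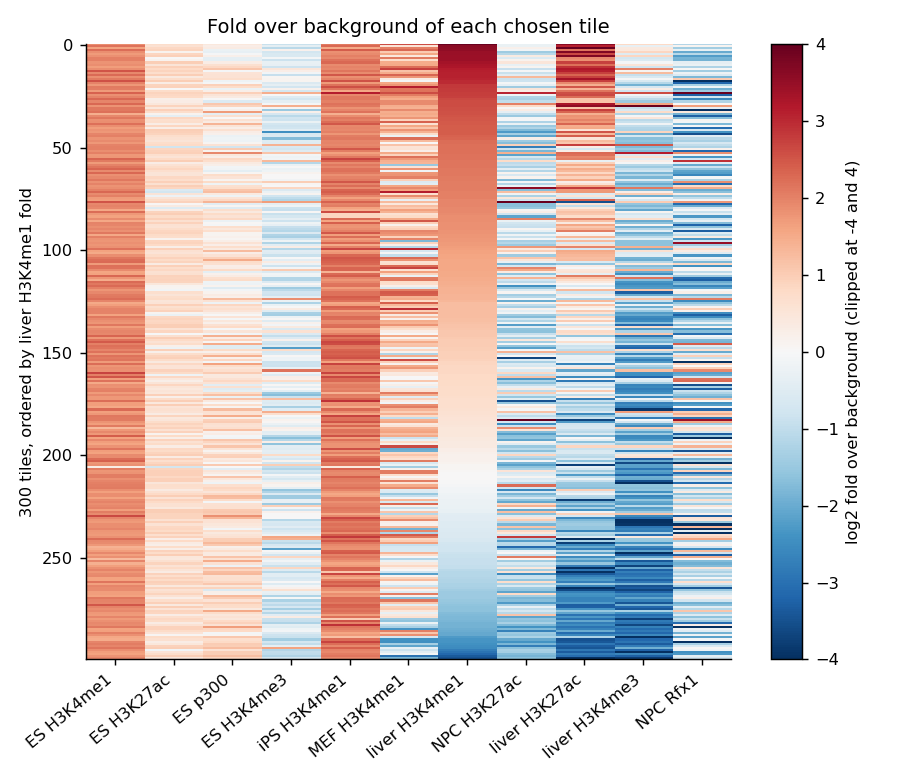
The 300 chosen tiles (rows, ordered by liver H3K4me1) and 11 mark and cell type combinations (columns), coloured by log2 fold over background. ES and iPS H3K4me1 are high in nearly every row, with 299 and 297 tiles at 2-fold or more, while MEF H3K4me1 and liver H3K27ac vary, with 140 and 87 tiles.

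iPS cells had H3K4me1 at nearly all of the chosen tiles. Their H3K4me1 ranged from 24.1 to 125 RPM with a median of 49.5 RPM, where the 3 ES libraries had medians of 41.7, 42.6 and 48.6 RPM. At least 2-fold over ES H3 was reached by 297 of 300 (99.0%), against 99.9% of acetylated tiles and 12.3% of all tiles. An enriched bin was present in 299 (99.7%), against 20.1% of all tiles. The iPS value over each ES library had a median of 1.20, 1.18 and 1.06 over 299 tiles. ES library 1 over ES libraries 2 and 3 had 0.973 and 0.866, and ES library 2 over ES library 3 had 0.893. iPS lay within the range of the 3 ES libraries in 146 chosen tiles (48.8%), above it in 127 (42.5%) and below it in 26 (8.70%). Among acetylated tiles it lay within in 37.02%, above in 56.01% and below in 6.97%. Over all tiles it lay within in 43.9%, above in 15.0% and below in 41.0%. A larger share above than below was thus not particular to the chosen tiles. Against ES libraries 1, 2 and 3, iPS was at least 2-fold higher in 18, 2 and 1 chosen tiles and at least 2-fold lower in 0, 0 and 4. ES library 1 was at least 2-fold lower than ES library 2 in 2 chosen tiles and than ES library 3 in 8. ES library 2 was at least 2-fold lower than ES library 3 in 2. In none of these ES pairs was the first library at least 2-fold higher. Shares over all tiles were not counted. With 1 shallow iPS library of 115.5 reads per median tile, the iPS differences had no replicate check. Lowest after the tile with outlying H3 were chr6:140620001-140640000 at 24.1 RPM, against 43.0, 42.5 and 49.6 RPM in ES cells, and chr13:74200001-74220000 at 26.3 RPM, against 40.8, 34.6 and 55.3 RPM in ES cells. Their folds over ES H3 were 1.79 and 1.83.

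Runs of neighbouring chosen tiles showed the same divergence between cell types on a larger scale. The longest, chr8:125800001-125900000, joined 5 tiles at 3.61-fold ES H3K4me1. Its H3K4me1 was 3.34-fold in MEF and 4.94-fold in liver, and its H3K27ac was 2.20-fold in liver and 0.526-fold in NPC. A run of 3 tiles, chr13:53220001-53280000, had 3.65-fold H3K4me1 in MEF and 0.412-fold in liver. Another, chr4:129960001-130020000, had 1.60-fold in MEF and 5.29-fold in liver, with liver H3K27ac of 5.13-fold. In chr6:100180001-100240000, liver H3K4me1 was 3.49-fold with H3K27ac of 0.829-fold, and NPC Rfx1 averaged 4.05-fold over WCE. In chr13:44820001-44880000 and chr3:9520001-9580000, MEF H3K4me1 was 0.799- and 1.15-fold and liver H3K4me1 1.87- and 1.17-fold. iPS H3K4me1 was 3.38- to 4.69-fold in all 6 runs.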

How the data were processed

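Each file the authors deposited lists signed read positions, not counts or normalised values. Aligner and build: not given in the sources used here. Positions lay within mm8 chromosome lengths, and since the annotation at hand was of another build, no gene or sequence was attached and cell identities were not checked against marker genes. Distinct positions were moved 100 bp toward the fragment centre and summed in 20 kb tiles and 500 bp bins (Python 3.11.15, numpy 2.4.6, pandas 2.3.3, scipy 1.17.1). RPM is scaled to 1e+06 distinct reads on chromosomes 1 to 19, X and Y. A bin passed at a Poisson Benjamini-Hochberg p of 0.01 and 3-fold over the genome mean or the background within 5000 bp, whichever was larger. p300 was compared with WCE by limma 3.58.1 (R 4.3.3) on log2 CPM with a prior count of 2, in tiles with at least 10 reads in 1 library. A count model was not used, because the deposited unit is positions. Both procedures were tested on simulated data. Other marks had no test, having 1 library a group. p-values measure the spread between libraries of a group. That spread may be technical for p300 and H3K27ac and includes different ES lines for H3K4me1. The description of p300 library 2 names p301 in 1 field; it was used as p300. Named tiles were the 5 with the largest H3K4me1 difference, the 3 highest per mark, the 3 lowest in iPS, the tiles at each threshold and the longest runs. The members, lists and tests were chosen with earlier results of these data known. Alternatives covered repeated reads, the shift, the grid, the H3K27ac limit, the number of tiles, scaling, the background library, the fold, the fit and each library left out.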

Additional observations from a re-analysis of the deposited data

How the results depend on the processing

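Of 95 alternative counts that left no library out, 17 differed by over 1.5 times from the count reported; the cause was not tested. With the H3K27ac limit at 1 times H3, only 13 of the 300 tiles were shared. The tiles with 2-fold ES H3K4me3 then numbered 6 (2.00%), those with 2-fold MEF H3K4me1 79 (26.3%), and those with p300 higher by limma 3 (1.00%). The shares of all tiles were 7.83%, 8.69% and 1.20%, so the share of adjusted p300 calls was no longer above that of all tiles. At an unadjusted p of 0.05 from limma, 65 of these tiles (21.7%) were higher in p300, against 7.79% of all tiles. The 2-library mean of p300 reached 2-fold over WCE in 20 of them (6.67%), against 3.48% of all tiles. Scaling each library to a median tile ratio of 1 kept 3 of the 300 tiles and gave 8 for ES H3K4me3, 64 for NPC H3K27ac, 39 for Rfx1, 168 for liver H3K27ac, 84 for liver H3K4me3 and 0 for p300 by limma (35 at an unadjusted p of 0.05), against 11.9%, 21.4%, 21.9%, 31.8%, 21.5% and 0.0154% of all tiles. Rfx1 thus turned to a share below that of all tiles (13.0%) and liver H3K4me3 to one above it (28.0%). WCE as background of the histone marks gave 8 for ES H3K4me3, and H3 as background of p300 gave 42, against 7.56% and 3.35% of all tiles. At 1.5-fold there were 26 tiles with ES H3K4me3 (8.67%), 43 with Rfx1 (14.3%) and 32 with liver H3K4me3 (10.7%), against 9.39%, 10.4% and 10.1% of all tiles. The 150 tiles with the largest difference, doubled, gave 14 for p300, the fit of p300 and WCE alone 0 (157 unadjusted), and limma-voom 24. Leaving out 1 library that the choice or the fit used gave 7 to 23 for ES H3K4me3, 29 to 35 for NPC H3K27ac, 14 to 47 for Rfx1, 133 to 142 for MEF H3K4me1, 129 to 169 for liver H3K4me1, 73 to 101 for liver H3K27ac, 16 to 27 for liver H3K4me3, 296 to 299 for iPS H3K4me1 and 0 to 21 for p300. The p300 count was 0 without p300 library 1 or 2, H3K4me1 library 2 or H3K27ac library 2, 1 without H3K27ac library 1, 3 without H3K4me1 library 1 and 21 without H3K4me1 library 3. ES H3K4me3 gave 7 and Rfx1 14 without H3K27ac library 1, and 23 and 47 without library 2; Rfx1 gave 43 without H3K4me1 library 1. Leaving out the tile with outlying H3, chosen after seeing the data, moved no count by over 1.5 times, and neither did 5-fold bins. No paired analysis was possible because WCE has 1 library, so the groups compared share fewer than 2 replicate numbers. Depth limits Rfx1 and H3K4me3 most.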
